A study of Mus musculus with 24 samples.

Results

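The 36 genes described here encode proteins of the synaptic vesicle cycle in neurons, and they were taken as the entries of the deposited count table that map to a list of 36 mouse symbols. All 36 were found among the 55421 gene identifiers of the table, and all 36 passed the filter on low counts, with 134 counts as the lowest value of any of them in any library (Doc2b). They fall into 7 role groups: 4 fusion SNAREs, 3 proteins of SNARE disassembly, 8 calcium sensors and complexins, 6 priming and active zone proteins, 7 vesicle membrane proteins and synapsins, 4 transmitter transporters and pump subunits, and 4 proteins of vesicle retrieval.

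Synaptic vesicles are filled with transmitter, docked and primed at the active zone, and fused with the plasma membrane when calcium enters the terminal. Fusion is driven by SNARE proteins on the vesicle and on the plasma membrane that zip into a tight bundle, with synaptotagmins as calcium sensors and complexins as partners of the bundle. Afterwards an ATPase takes the bundle apart, and the membrane is retrieved by endocytosis. These proteins are known as the machinery of transmitter release, and their transcripts are abundant in brain neurons.

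The data come from the left brain hemisphere of mice aged 3 months, all with the strain label C57BL/6J, in 4 groups of 6 libraries each. The groups were Nox2 knockout with LPS, Nox2 knockout with PBS, wild type with LPS and wild type with PBS. LPS, a lipopolysaccharide of the bacterial outer membrane that provokes systemic inflammation, came from Salmonella abortus equi and was given into the peritoneum at 1 µg per g body weight per day in 100 µl on 4 consecutive days, and PBS mice got 100 µl of the buffer on the same days. Nox2, also called gp91phox, is the core of the superoxide-producing NADPH oxidase of phagocytes and is encoded by Cybb on chromosome X. The title of the study places it in the context of neurodegeneration after repeated systemic LPS. The labels give neither the knockout allele nor the sex of the mice, and they number 6 libraries per group without stating in words that each came from its own animal, so the p-values measure the spread between these libraries.

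Libraries were made with a QuantSeq 3′ kit, which counts tags near the end of polyadenylated transcripts, and held 2340184 to 5256169 counts each. Levels are in CPM, the count as a share of the library total on its usual scale, with TMM factors that lay between 0.988 and 1.01. Cybb tags were higher in the libraries labelled knockout, by 5.42 ± 0.18 on the log2 scale after PBS and by 1.52 ± 0.11 after LPS (SE, edgeR). The labels do not say which part of Cybb is disrupted, so 3′ tags do not check the genotype, and "knockout-labelled" is used throughout. S100a5, a gene of olfactory sensory neurons, was at 0 to 1.37 CPM in all 12 knockout-labelled libraries, at 0 in replicates 1 and 2 of wild type LPS mice and replicate 4 of wild type PBS mice, and at 7.40 to 19.0 CPM in the other 9 wild type libraries. Pituitary growth hormone (Gh) reached 1655 CPM in replicate 4 of the knockout-labelled LPS group. Some results that moved with replicates 1 and 2 of wild type LPS mice, or with the library with Gh, are given with and without them. Others are given with all libraries only.

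In bulk tissue a lower level can mean fewer cells of a type or less RNA per cell, which cannot be told apart here. After LPS, 11 of the 36 genes were called lower in knockout-labelled mice and 15 of 36 in wild type mice, and no member was called higher in either by edgeR's quasi-likelihood test (Benjamini-Hochberg adjusted p under 0.05 over all 14380 genes tested). The share of all tested genes called lower was 3.82% in knockout-labelled mice and 7.12% in wild type mice, and the shares called higher were 7.05% and 10.9%. At an unadjusted p under 0.05, 19 members were lower in knockout-labelled mice and 17 in wild type mice and 0 were higher in either. The shares of all tested genes at that threshold were 9.84% lower and 11.9% higher in knockout-labelled mice, and 13.6% lower and 16.2% higher in wild type mice. DESeq2 called 13 lower in knockout-labelled mice and 15 in wild type mice and 0 higher. The members' median log2 change was -0.12 in knockout-labelled mice and -0.09 in wild type mice, beside -0.00 and -0.01 over all tested genes. Of the 36, 34 had a log2 change below 0 in knockout-labelled mice and 31 in wild type mice. Over all tested genes the shares below 0 were 50.4% in knockout-labelled mice and 51.8% in wild type mice. The changes were small: the largest was that of Stx1a in both genotypes, with a log2 change of -0.36 in knockout-labelled mice, a level lower by 22.1%, and of -0.40 in wild type mice.

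**Figure D1:**
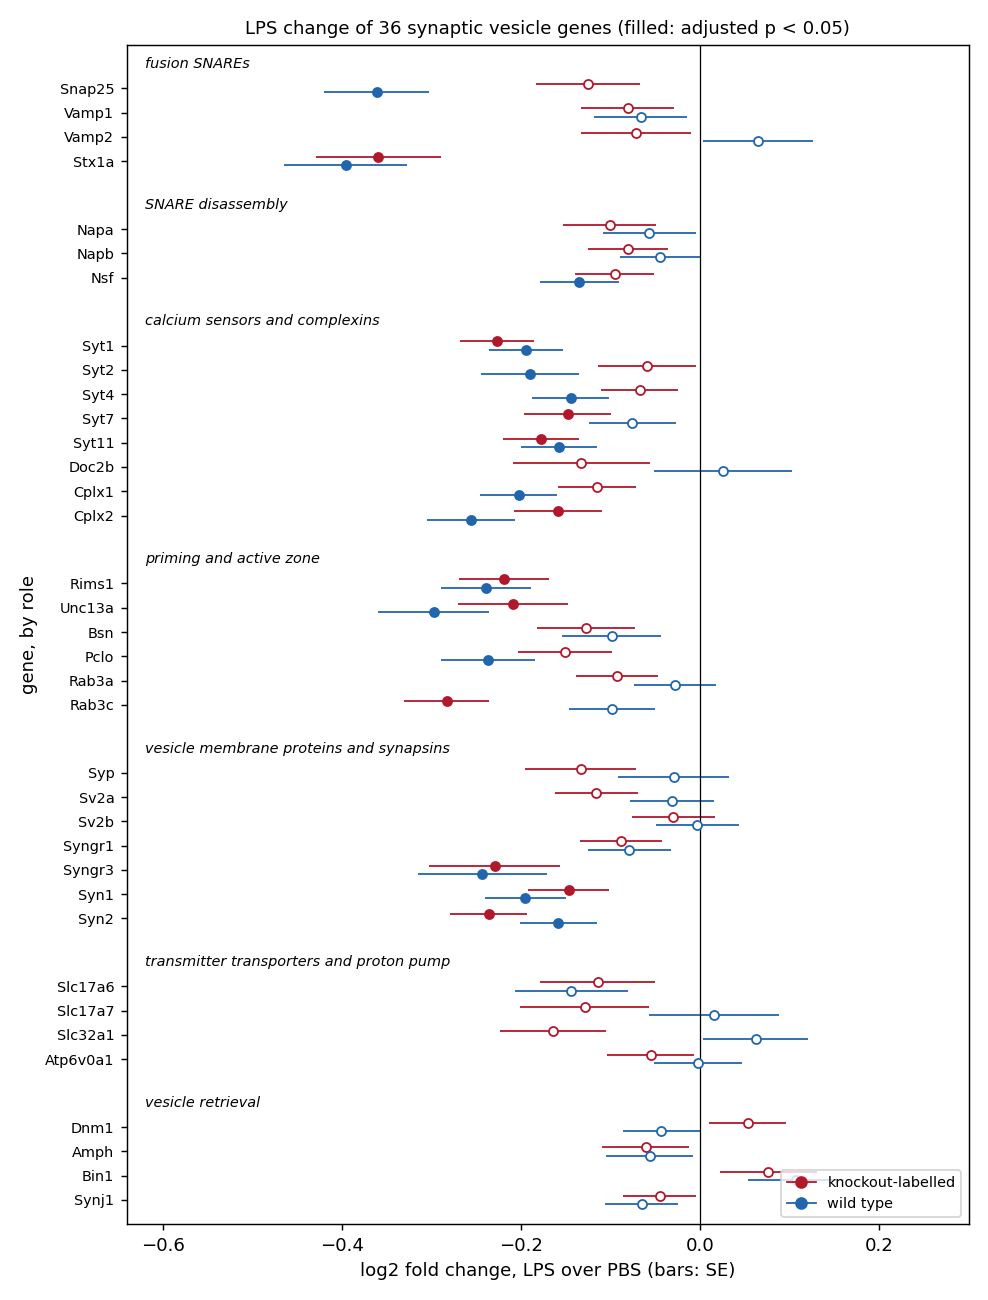
Log2 fold change of each of the 36 genes after LPS over PBS (x axis, log2 scale; points, estimates; bars, SE), grouped by role, in knockout-labelled mice (red, upper point of each pair) and wild type mice (blue, lower point); filled points passed an adjusted p of 0.05. The filled points, 11 red and 15 blue, all lie left of 0, and the transporter and retrieval groups hold none.

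Of the 17 genes called in either genotype, 9 were called in both: Stx1a, Syt1, Syt11, Cplx2, Rims1, Unc13a, Syngr3, Syn1 and Syn2. These 9 are 81.8% of the knockout-labelled calls and 60.0% of the wild type calls. Rab3c and Syt7 were called in knockout-labelled mice, and Snap25, Nsf, Syt2, Syt4, Cplx1 and Pclo in wild type mice. That a gene passed in one genotype and missed in the other does not show a difference between genotypes, and the test of that difference is given after the role groups. The knockout-labelled count depended on single libraries. It was 6 without replicate 1 of the LPS group, 7 without replicate 3 or replicate 4 of that group, the library with pituitary transcripts, and 7 without replicate 4 of the PBS group. The wild type count lay between 14 and 16 when any 1 library was left out.

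Promoter sequences are shown for 4 genes: Syn1 and Unc13a, called lower in both genotypes and the only members whose window holds the RE1 motif described next, Stx1a, the member with the largest fall, and Napa, which was called in neither genotype and shares a motif with Syn1. Each runs 5′ to 3′ on the gene's own strand from 250 bases before to 50 after the start in RefSeq for GRCm38.p6.
Syn1 (chrX:20920869-20921168, minus strand): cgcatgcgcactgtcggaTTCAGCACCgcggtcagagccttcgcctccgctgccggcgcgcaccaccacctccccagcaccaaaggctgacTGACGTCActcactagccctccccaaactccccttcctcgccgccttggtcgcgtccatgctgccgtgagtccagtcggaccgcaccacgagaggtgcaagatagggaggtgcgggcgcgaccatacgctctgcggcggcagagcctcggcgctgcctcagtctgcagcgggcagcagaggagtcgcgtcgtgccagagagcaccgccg
Unc13a (chr8:71671708-71672007, minus strand): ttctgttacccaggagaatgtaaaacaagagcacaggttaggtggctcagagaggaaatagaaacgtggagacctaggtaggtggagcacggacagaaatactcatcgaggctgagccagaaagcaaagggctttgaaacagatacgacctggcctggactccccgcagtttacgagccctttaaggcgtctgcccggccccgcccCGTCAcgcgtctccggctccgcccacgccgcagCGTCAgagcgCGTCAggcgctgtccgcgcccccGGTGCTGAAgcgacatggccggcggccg
Stx1a (chr5:135023232-135023531, plus strand): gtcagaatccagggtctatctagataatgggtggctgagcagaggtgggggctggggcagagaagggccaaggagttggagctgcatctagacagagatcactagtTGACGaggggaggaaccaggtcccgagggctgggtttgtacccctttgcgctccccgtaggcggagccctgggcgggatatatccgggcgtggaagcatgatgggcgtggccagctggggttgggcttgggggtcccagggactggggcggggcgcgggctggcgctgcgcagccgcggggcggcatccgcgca
Napa (chr7:16098330-16098629, plus strand): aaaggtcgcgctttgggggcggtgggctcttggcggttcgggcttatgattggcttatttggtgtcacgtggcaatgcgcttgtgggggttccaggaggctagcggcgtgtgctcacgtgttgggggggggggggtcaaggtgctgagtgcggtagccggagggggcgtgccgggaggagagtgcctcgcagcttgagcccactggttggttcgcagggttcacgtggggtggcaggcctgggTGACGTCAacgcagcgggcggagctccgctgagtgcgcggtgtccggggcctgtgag
Capitals mark matches to 2 motifs on either strand. The first, called the RE1 motif here, is the left portion of RE1, TTCAGCACC, the element bound by the repressor REST, which is known for silencing neuronal genes outside neurons. The second is the cAMP response element, TGACGTCA, with its core TGACG, the element bound by CREB. In Unc13a all capitals are matches on the opposite strand, where the letters read as the reverse complement of the motif. The core is contained in the full cAMP response element, so the matches overlap.

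RefSeq windows, 38 in all, were matched for 29 of the 36 members, 13 of them called lower in at least 1 genotype; Snap25, Vamp2, Syt4, Syt7, Doc2b, Syngr3 and Bin1 had none in the table used. The RE1 motif was in 2 of the 29, Syn1 and Unc13a, and in 0.371% of all 32851 promoter windows of the same length. The full cAMP response element was in Syn1 and Napa, and in 1.79% of all windows. Its core was in 9 members, 5 of them called, and in 20.8% of all windows. The GC box GGGCGG, the site of Sp1, which is not capitalised, was in 22 members, 10 of them called, or 23 of their 38 windows, and in 35.7% of all windows. A core of the NF-kB site, GGACTTTCC, an element of inflammatory genes, was in none of the 38 windows and in 0.344% of all windows. A match is a description of letters and not evidence of binding.

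The fusion SNAREs are the proteins that bring the membranes together. Stx1a and Snap25 encode plasma membrane SNAREs, and Vamp1 and Vamp2 encode the synaptobrevins of the vesicle. Of these 4 genes, Stx1a was called lower in knockout-labelled mice and Stx1a and Snap25 in wild type mice, and both synaptobrevins were called in neither.

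Levels of a group are given as the lowest, the median and the highest of its 6 libraries. Stx1a (ENSMUSG00000007207, chr5:135023482-135051100, plus strand, GRCm38) had 51.1, 55.1 and 61.8 CPM in knockout-labelled LPS libraries, against 65.2, 70.6 and 82.5 CPM in knockout-labelled PBS libraries. In wild type mice it had 50.4, 56.5 and 65.3 CPM after LPS, against 71.1, 74.9 and 83.1 CPM after PBS. Every LPS library lay below every PBS library in both genotypes. The log2 change was -0.36 ± 0.07 in knockout-labelled mice (SE, edgeR adjusted p = 0.000164) and -0.40 ± 0.07 in wild type mice (adjusted p = 1.89e-05), and both calls held whichever single library was left out. A complete separation of this kind, LPS below PBS, was found for 5 of the 36 genes in knockout-labelled mice, where 1.72% of all tested genes show it, and for 7 in wild type mice, where 2.06% do.

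Snap25 (ENSMUSG00000027273, chr2:136713453-136782428, plus strand) was the most abundant member, with a mean of 1684 CPM over all libraries. It had 1564, 1618 and 1737 CPM in knockout-labelled LPS libraries, against 1637, 1782 and 1989.8 CPM in knockout-labelled PBS libraries. Those groups overlapped, with 4 of 6 LPS libraries below the lowest PBS library. In wild type mice Snap25 had 1187, 1461 and 1675 CPM after LPS, against 1807, 1879 and 1905 CPM after PBS, a complete separation. edgeR put the log2 change at -0.12 ± 0.06 in knockout-labelled mice (edgeR adjusted p = 0.196) and -0.36 ± 0.06 in wild type mice (adjusted p = 5.19e-06). The 6 wild type LPS libraries were themselves spread. Replicates 1 and 2, in which S100a5 is at 0, held the highest values, 1675 and 1667 CPM, and the other 4 held 1558, 1298, 1187 and 1365 CPM. Without replicates 1 and 2 the wild type change was -0.47 ± 0.05 (adjusted p = 1.57e-09).

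Vamp2 (ENSMUSG00000020894, chr11:69088490-69092384, plus strand), described here because of its spread among wild type libraries, had 902, 976 and 1054 CPM in knockout-labelled LPS libraries, against 858, 1048 and 1126 CPM in knockout-labelled PBS libraries. Its wild type levels were 845, 997 and 1205 CPM after LPS, against 912, 951 and 1005 CPM after PBS. The groups overlapped in both genotypes, and the wild type LPS group had the widest spread. Here replicates 1 and 2 of wild type LPS mice were the lowest, at 845 and 849 CPM, and replicate 4 was the highest, at 1205 CPM. With all libraries the wild type change was 0.06 ± 0.06 (adjusted p = 0.535), and without replicates 1 and 2 it was 0.16 ± 0.06 (adjusted p = 0.0356), which passes the threshold as higher. Snap25 and Vamp2 thus lay on opposite sides of 0 in wild type mice, and the position of replicates 1 and 2 within their group was reversed between the genes. Vamp1 had log2 changes of -0.08 ± 0.05 in knockout-labelled mice and -0.07 ± 0.05 in wild type mice, neither past the threshold.

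**Figure D2:**
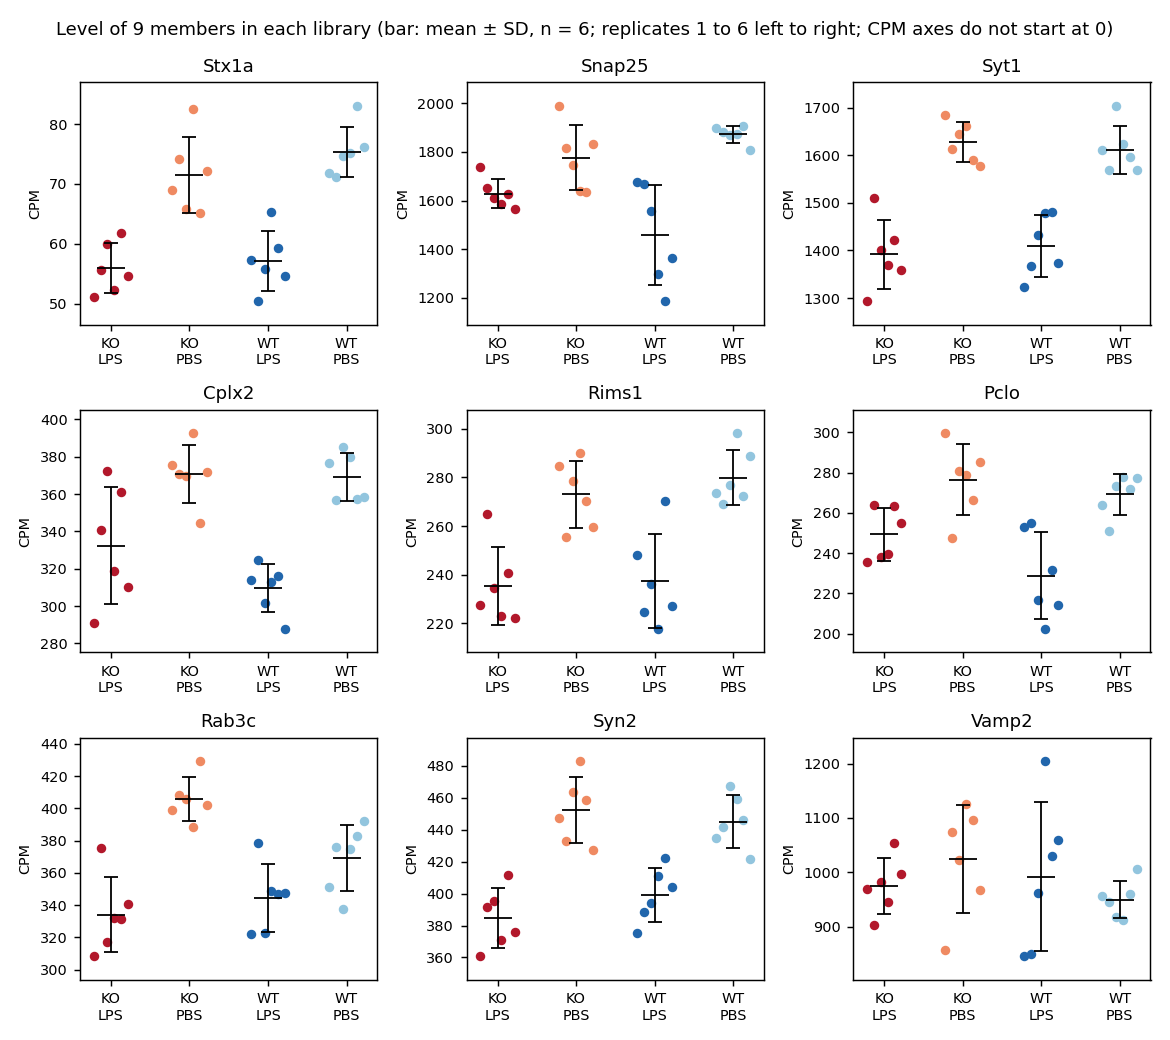
Level of 9 genes (y axis, CPM, not starting at 0) in each of the 24 libraries, with groups on the x axis in the order knockout-labelled LPS, knockout-labelled PBS, wild type LPS and wild type PBS; points are libraries, replicate 1 to 6 from left to right, and bars are mean ± SD (n = 6). Stx1a and Syt1 separate LPS from PBS in both genotypes, and the wild type LPS libraries of Snap25 spread from 1187 to 1675 CPM.

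SNARE disassembly rests on the ATPase NSF, encoded by Nsf, and on its adaptors, encoded by Napa and Napb. None of the 3 genes was called in knockout-labelled mice, and Nsf was called lower in wild type mice. Nsf (ENSMUSG00000034187, chr11:103821782-103954056, minus strand) had 458, 489.8 and 524 CPM in knockout-labelled LPS libraries, against 501, 534 and 538 CPM in knockout-labelled PBS libraries, and 441, 479.8 and 525 CPM in wild type LPS libraries, against 499, 519.8 and 563 CPM in wild type PBS libraries. In each genotype 5 of the 6 LPS libraries lay below the lowest PBS library, and 1, replicate 2, lay among the PBS values. This gave a log2 change of -0.10 ± 0.04 in knockout-labelled mice (edgeR adjusted p = 0.19) and -0.14 ± 0.04 in wild type mice (adjusted p = 0.0256). The wild type call was lost in 4 of the 12 fits that left out 1 library, without replicate 5 or 6 of the LPS group or replicate 3 or 4 of the PBS group, with an adjusted p of up to 0.0815, and with only the 2 groups compared (adjusted p = 0.068). Napa and Napb had log2 changes between -0.10 and -0.04 across both genotypes, with adjusted p from 0.251 to 0.564. The Napa promoter above, with its full cAMP response element, belongs to a gene with 127, 141 and 149 CPM in knockout-labelled LPS libraries, against 139, 149.5 and 157 CPM in knockout-labelled PBS libraries.

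Of the 8 calcium sensors and complexins, the role group with the most genes, 4 were called lower in knockout-labelled mice and 6 in wild type mice. Syt1, Syt11 and Cplx2 were called lower in both genotypes, Syt7 in knockout-labelled mice, and Syt2, Syt4 and Cplx1 in wild type mice. The group's median log2 change was -0.14 in knockout-labelled mice and -0.17 in wild type mice.

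Syt1 (ENSMUSG00000035864, chr10:108497650-109010982, minus strand), the calcium sensor of fast release in forebrain neurons, had 1294, 1385 and 1509.97 CPM in knockout-labelled LPS libraries, against 1577, 1629 and 1684 CPM in knockout-labelled PBS libraries. Syt1 in wild type mice had 1323, 1402 and 1480.4 CPM after LPS, against 1568, 1603 and 1704 CPM after PBS. LPS and PBS libraries did not overlap in either genotype. On the log2 scale the change was -0.23 ± 0.04 in knockout-labelled mice (edgeR adjusted p = 6.97e-05) and -0.19 ± 0.04 in wild type mice (adjusted p = 0.000452), a level lower by 14.5% in knockout-labelled mice and 12.6% in wild type mice.

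Syt11 (ENSMUSG00000068923, chr3:88744700-88775164, minus strand), a synaptotagmin that is not a calcium sensor for fusion, had 893, 957 and 1001 CPM in knockout-labelled LPS libraries, against 1031, 1083 and 1113 CPM in knockout-labelled PBS libraries. Its wild type levels were 891, 949 and 984 CPM after LPS, against 966, 1060.4 and 1120.3 CPM after PBS. The knockout-labelled groups did not overlap, and in wild type mice 3 LPS libraries lay above the lowest PBS library, replicate 6. As a log2 change this was -0.18 ± 0.04 in knockout-labelled mice (edgeR adjusted p = 0.00261) and -0.16 ± 0.04 in wild type mice (adjusted p = 0.00611).

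Cplx2 (ENSMUSG00000025867, chr13:54371349-54383917, plus strand) encodes a complexin, a small protein that binds the assembled SNARE bundle. It had 291, 329.7 and 372 CPM in knockout-labelled LPS libraries, against 345, 371 and 393 CPM in knockout-labelled PBS libraries, and 288, 313 and 325 CPM in wild type LPS libraries, against 357, 368 and 385 CPM in wild type PBS libraries. The wild type groups were fully apart, while the knockout-labelled LPS libraries were spread and replicates 3 and 5 lay among the PBS values. The log2 change was -0.16 ± 0.05 in knockout-labelled mice (edgeR adjusted p = 0.0253) and -0.26 ± 0.05 in wild type mice (adjusted p = 9.76e-05). The knockout-labelled call was lost in 4 of 12 fits that left out 1 library, namely replicates 1, 4 and 6 of the LPS group and replicate 4 of the PBS group, with an adjusted p of up to 0.139, and with a minimum count of 30 (adjusted p = 0.0551).

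Cplx1 (ENSMUSG00000033615, chr5:108518554-108550024, minus strand), the other complexin among the members, had 487, 493 and 525 CPM in knockout-labelled LPS libraries, against 522, 534 and 575 CPM in knockout-labelled PBS libraries. In wild type mice it had 465, 507 and 531 CPM after LPS, against 543, 577 and 604 CPM after PBS. The wild type groups did not overlap, and in knockout-labelled mice 1 LPS library, replicate 1, lay above the lowest PBS library. edgeR put the log2 change at -0.12 ± 0.04 in knockout-labelled mice (edgeR adjusted p = 0.0848) and -0.20 ± 0.04 in wild type mice (adjusted p = 0.000434).

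Syt7 (ENSMUSG00000024743, chr19:10389090-10453180, plus strand) encodes a synaptotagmin of high calcium affinity that acts in asynchronous release. It had 404, 430.3 and 454 CPM in knockout-labelled LPS libraries, against 435, 477 and 506 CPM in knockout-labelled PBS libraries, and 398, 423 and 478 CPM in wild type LPS libraries, against 413, 447 and 488 CPM in wild type PBS libraries. Groups overlapped in both genotypes. This gave a log2 change of -0.15 ± 0.05 in knockout-labelled mice (edgeR adjusted p = 0.0396) and -0.08 ± 0.05 in wild type mice (adjusted p = 0.315). The knockout-labelled call was lost in 7 of 12 fits that left out 1 library, namely replicates 1, 3 and 4 of the LPS group and replicates 2, 3, 5 and 6 of the PBS group, with an adjusted p of up to 0.116. It was also lost with upper-quartile factors, with library totals alone and with a minimum count of 30.

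Syt2 (ENSMUSG00000026452, chr1:134646677-134762593, plus strand), a close relative of Syt1 with the same role at fast synapses, had 131, 142 and 153 CPM in knockout-labelled LPS libraries, against 136, 144 and 161 CPM in knockout-labelled PBS libraries. Its wild type levels were 117, 128 and 131 CPM after LPS, against 129, 146 and 156 CPM after PBS. All 6 wild type LPS libraries lay below the PBS median and 4 below the lowest PBS library. On the log2 scale the change was -0.06 ± 0.05 in knockout-labelled mice (edgeR adjusted p = 0.603) and -0.19 ± 0.06 in wild type mice (adjusted p = 0.0107).

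Syt4 (ENSMUSG00000024261, chr18:31437808-31447406, minus strand) encodes a synaptotagmin of dense-core vesicles. Its levels were 366, 387 and 391 CPM in knockout-labelled LPS libraries, against 367, 404 and 419 CPM in knockout-labelled PBS libraries, and 339.9, 355 and 391 CPM in wild type LPS libraries, against 369, 401 and 415 CPM in wild type PBS libraries. In wild type mice replicate 1 was the only LPS library above the lowest PBS library. As a log2 change this was -0.07 ± 0.04 in knockout-labelled mice (edgeR adjusted p = 0.398) and -0.14 ± 0.04 in wild type mice (adjusted p = 0.0141). Doc2b, a calcium-binding protein of spontaneous release and the least abundant member with a mean of 54.6 CPM, was called in neither genotype, with log2 changes of -0.13 ± 0.08 in knockout-labelled mice and 0.03 ± 0.08 in wild type mice.

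Priming makes docked vesicles ready for fusion, and the active zone scaffold holds them at the release site. Of the 6 genes in this group, Rims1, Unc13a and Rab3c were called lower in knockout-labelled mice and Rims1, Unc13a and Pclo in wild type mice. All 6 had log2 changes below 0 in both genotypes.

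Rims1 (ENSMUSG00000041670, chr1:22286251-22805994, minus strand) encodes a scaffold that links vesicles, calcium channels and priming factors. It had 222, 231 and 265 CPM in knockout-labelled LPS libraries, against 255, 275 and 290.00 CPM in knockout-labelled PBS libraries, and 218, 232 and 270.1 CPM in wild type LPS libraries, against 269, 275 and 298 CPM in wild type PBS libraries. In each genotype a single LPS library reached into the PBS range, replicate 2 in knockout-labelled mice and replicate 5 in wild type mice. The log2 change was -0.22 ± 0.05 in knockout-labelled mice (edgeR adjusted p = 0.00177) and -0.24 ± 0.05 in wild type mice (adjusted p = 0.00039), and neither call was lost in any fit that left out 1 library.

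Unc13a (ENSMUSG00000034799, chr8:71624417-71671757, minus strand), the main vesicle priming factor of glutamatergic synapses and a holder of the RE1 motif shown above, had 93.3, 98.7 and 116 CPM in knockout-labelled LPS libraries, against 107, 115 and 130.01 CPM in knockout-labelled PBS libraries. Unc13a in wild type mice had 88.5, 95.9 and 104 CPM after LPS, against 107, 119.9 and 131 CPM after PBS. The wild type groups did not overlap, and 2 knockout-labelled LPS libraries, replicates 2 and 5, lay above the lowest PBS library. edgeR put the log2 change at -0.21 ± 0.06 in knockout-labelled mice (edgeR adjusted p = 0.0188) and -0.30 ± 0.06 in wild type mice (adjusted p = 0.000311). The knockout-labelled call was lost without replicate 1 or 3 of the LPS group or replicate 4 of the PBS group, with an adjusted p of up to 0.0798. The last 500 bases of Unc13a overlap exons of Colgalt1 on the opposite strand, and without a stated strand setting tags of the pair cannot be told apart. Colgalt1 was called higher after LPS, with log2 changes of 0.28 ± 0.06 in knockout-labelled mice and 0.45 ± 0.06 in wild type mice.

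Pclo (ENSMUSG00000061601, chr5:14514918-14863459, plus strand) and Bsn encode piccolo and bassoon, giant scaffold proteins of the active zone. Pclo had 236, 247 and 264 CPM in knockout-labelled LPS libraries, against 248, 279.9 and 299 CPM in knockout-labelled PBS libraries, and 202, 224 and 255 CPM in wild type LPS libraries, against 251, 273 and 278 CPM in wild type PBS libraries. Replicates 1 and 2 of wild type LPS mice were again the highest of their group, at 253 and 255 CPM, and the only ones above the lowest PBS library. This gave a log2 change of -0.15 ± 0.05 in knockout-labelled mice (edgeR adjusted p = 0.0554) and -0.24 ± 0.05 in wild type mice (adjusted p = 0.000765). Without those replicates the wild type change was -0.32 ± 0.05 (adjusted p = 7.01e-06). Bsn was called in neither genotype, with log2 changes of -0.13 ± 0.06 in knockout-labelled mice and -0.10 ± 0.06 in wild type mice.

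Rab3c and Rab3a encode small GTPases on the vesicle surface. Rab3c (ENSMUSG00000021700, chr13:110054187-110280996, minus strand) had 308, 332 and 376 CPM in knockout-labelled LPS libraries, against 388, 404 and 429 CPM in knockout-labelled PBS libraries, a complete separation. In wild type mice it had 322, 347 and 379 CPM after LPS, against 338, 376 and 392 CPM after PBS, and the groups overlapped. Of the 36 members Rab3c had the smallest p in knockout-labelled mice, with a log2 change of -0.28 ± 0.05 (edgeR adjusted p = 1.87e-05), beside -0.10 ± 0.05 in wild type mice (adjusted p = 0.159). Rab3a was not called, with log2 changes of -0.09 ± 0.05 in knockout-labelled mice and -0.03 ± 0.05 in wild type mice; its last 500 bases overlap exons of Mpv17l2 on the opposite strand, which had log2 changes after LPS of 0.05 ± 0.10 in knockout-labelled mice, not called, and 0.51 ± 0.10 in wild type mice, called higher.

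The vesicle membrane proteins and synapsins include the most used protein markers of the presynaptic terminal. Of the 7 genes, Syngr3, Syn1 and Syn2 were called lower in both genotypes, and Syp, Sv2a, Sv2b and Syngr1 in neither. All 7 had log2 changes below 0 in both genotypes.

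Syn1 and Syn2 encode synapsins, phosphoproteins that tether vesicles in the reserve pool. Syn2 (ENSMUSG00000009394, chr6:115134902-115282006, plus strand) had 361, 384 and 412 CPM in knockout-labelled LPS libraries, against 428, 453 and 483 CPM in knockout-labelled PBS libraries, and 375, 399 and 423 CPM in wild type LPS libraries, against 421, 444 and 467 CPM in wild type PBS libraries. Knockout-labelled groups did not overlap, and 1 wild type LPS library, replicate 5, lay just above the lowest PBS library. On the log2 scale the change was -0.24 ± 0.04 in knockout-labelled mice (edgeR adjusted p = 7.03e-05) and -0.16 ± 0.04 in wild type mice (adjusted p = 0.0064).

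Syn1 (ENSMUSG00000037217, chrX:20860511-20921004, minus strand), whose promoter holds both the RE1 motif and the full cAMP response element, had 199.9, 209.8 and 237 CPM in knockout-labelled LPS libraries, against 222, 233 and 246 CPM in knockout-labelled PBS libraries. Syn1 in wild type mice had 200.02, 213 and 224 CPM after LPS, against 233, 244 and 248 CPM after PBS. The wild type groups were fully apart, and in knockout-labelled mice replicate 2 of the LPS group lay above the PBS median. As a log2 change this was -0.15 ± 0.05 in knockout-labelled mice (edgeR adjusted p = 0.0258) and -0.20 ± 0.05 in wild type mice (adjusted p = 0.0012). The knockout-labelled call was lost without replicate 1, 3 or 4 of the LPS group or replicate 1 or 4 of the PBS group, with an adjusted p of up to 0.0966, and also with no filter or a minimum count of 30. The last 500 bases of Syn1 overlap exons of Araf on the opposite strand, and Araf was not called, with log2 changes of 0.14 ± 0.14 in knockout-labelled mice and -0.32 ± 0.15 in wild type mice.

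Syngr3 (ENSMUSG00000007021, chr17:24685092-24689955, minus strand) encodes a synaptogyrin, a protein that spans the vesicle membrane. It had 55.8, 59.2 and 69.4 CPM in knockout-labelled LPS libraries, against 63.4, 70.8 and 75.9 CPM in knockout-labelled PBS libraries, and 54.8, 61.8 and 67.5 CPM in wild type LPS libraries, against 61.4, 73.0 and 80.9 CPM in wild type PBS libraries. The groups overlapped in both genotypes, and all LPS libraries lay below the median of their PBS group. The log2 change was -0.23 ± 0.07 in knockout-labelled mice (edgeR adjusted p = 0.0326) and -0.24 ± 0.07 in wild type mice (adjusted p = 0.0132). The knockout-labelled call was lost in 7 of 12 fits that left out 1 library, namely replicates 1, 3, 4 and 6 of the LPS group and replicates 1, 3 and 4 of the PBS group (adjusted p up to 0.0932), and with a minimum count of 30. The wild type call was lost in 2 of 12, without replicate 4 of the LPS group or replicate 2 of the PBS group (up to 0.0508).

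The members of this group that were not called are common markers of the terminal. Syp, which encodes synaptophysin, had log2 changes of -0.13 ± 0.06 in knockout-labelled mice and -0.03 ± 0.06 in wild type mice. Sv2a, the binding site of the antiepileptic drug levetiracetam, had -0.12 ± 0.05 in knockout-labelled mice and -0.03 ± 0.05 in wild type mice. Sv2b, its paralog, had -0.03 ± 0.05 in knockout-labelled mice and -0.00 ± 0.05 in wild type mice, the smallest changes of the group. Syngr1 had -0.09 ± 0.05 in knockout-labelled mice and -0.08 ± 0.05 in wild type mice. None of the 4 passed the threshold, with adjusted p from 0.118 to 0.977, and this does not show that their levels were equal.

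The transmitter transporters load the vesicle, with energy from a proton pump. None of the 4 genes was called in either genotype, 0 of 4 in each; at an unadjusted p under 0.05, Slc32a1 was lower in knockout-labelled mice and Slc17a6 in wild type mice. Slc32a1 (ENSMUSG00000037771, chr2:158610767-158615748, plus strand), the transporter of GABA and glycine, had 122, 129 and 140.01 CPM in knockout-labelled LPS libraries, against 125, 144 and 161 CPM in knockout-labelled PBS libraries. Its wild type levels were 121, 137 and 152 CPM after LPS, against 123, 129 and 141 CPM after PBS. The groups overlapped in both genotypes, with the LPS median below the PBS median in knockout-labelled mice and above it in wild type mice. edgeR put the log2 change at -0.16 ± 0.06 in knockout-labelled mice (edgeR adjusted p = 0.0676) and 0.06 ± 0.06 in wild type mice (adjusted p = 0.532). The other markers of inhibitory neurons were Gad1, Gad2, Pvalb, Sst, Vip and Dlx1. They summed to 796 to 883 CPM after LPS against 871 to 984 CPM after PBS in knockout-labelled mice. In wild type mice the sums were 814 to 919 CPM after LPS against 933 to 1008 CPM after PBS. Of these 6, 1 was called lower in knockout-labelled mice and 2 in wild type mice, and none higher. The genes did not all move alike. In wild type mice Vip was at 19.2 to 27.8 CPM after LPS, against 16.3 to 20.6 CPM after PBS. Pvalb was at 277 to 318 CPM after LPS, against 276 to 330 CPM after PBS. The vesicular glutamate transporters Slc17a7, of cortical and hippocampal neurons, and Slc17a6, of thalamic and brainstem neurons, had log2 changes of -0.13 ± 0.07 and -0.11 ± 0.06 in knockout-labelled mice and of 0.02 ± 0.07 and -0.14 ± 0.06 in wild type mice. Without replicates 1 and 2 of wild type LPS mice Slc17a6 passed the threshold as lower in wild type mice, at -0.20 ± 0.07 (adjusted p = 0.0299). In knockout-labelled mice Slc17a6 was lowest after PBS in replicates 4 and 5, at 98.9 and 98.7 CPM, the libraries with few hindbrain and spinal markers. The other PBS libraries held 113 to 122 CPM, against 92.5 to 116 CPM after LPS. The part of replicates 4 and 5 in the knockout-labelled change was not tested. Atp6v0a1, a membrane subunit of the proton pump, had -0.06 ± 0.05 in knockout-labelled mice and -0.00 ± 0.05 in wild type mice.

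Vesicle retrieval rests on dynamin (Dnm1), which cuts the bud from the membrane, and on amphiphysins (Amph and Bin1), which bind curved membrane. It also rests on synaptojanin (Synj1), a lipid phosphatase that acts in the shedding of the clathrin coat. None of these 4 genes was called in either genotype or had an unadjusted p under 0.05, and Bin1 was the single member of the 36 with a log2 change above 0 in both, at 0.08 ± 0.05 in knockout-labelled mice and 0.11 ± 0.05 in wild type mice. Bin1 is also strongly expressed by oligodendrocytes. Dnm1 (ENSMUSG00000026825, chr2:32308471-32353338, minus strand) had 254, 267 and 285 CPM in knockout-labelled LPS libraries, against 248, 254 and 269.9 CPM in knockout-labelled PBS libraries, and 242, 251 and 262 CPM in wild type LPS libraries, against 244, 263 and 269.9 CPM in wild type PBS libraries. LPS and PBS libraries overlapped in both genotypes. The log2 change of Dnm1 was 0.05 ± 0.04 in knockout-labelled mice (95% interval -0.04 to 0.14) and -0.04 ± 0.04 in wild type mice (-0.13 to 0.05). Amph had -0.06 ± 0.05 in knockout-labelled mice and -0.06 ± 0.05 in wild type mice, and Synj1 had -0.04 ± 0.04 in knockout-labelled mice and -0.07 ± 0.04 in wild type mice.

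Summed over all 36 genes, the level was 14173 to 14844 CPM in knockout-labelled LPS libraries, against 15566 to 16007 CPM in knockout-labelled PBS libraries, and 13873 to 14789.9 CPM in wild type LPS libraries, against 15477 to 15693 CPM in wild type PBS libraries. LPS and PBS libraries did not overlap in either genotype; the sum is a description with no test, since abundant genes such as Snap25 and Syt1 weigh most in it. The group means were 14456 ± 303 after LPS and 15781 ± 185 CPM after PBS in knockout-labelled mice, and 14262 ± 332 after LPS and 15566 ± 78.4 CPM after PBS in wild type mice (SD, n = 6 each). By role, the sums of the fusion SNAREs and of the calcium sensors and complexins were also apart in both genotypes. Those of SNARE disassembly, of priming and the active zone, and of the vesicle membrane proteins and synapsins were apart in knockout-labelled mice and overlapped in wild type mice. The sums of the transporters and of vesicle retrieval overlapped in both. In knockout-labelled mice the overlap of the transporters came from replicate 1 of the PBS group, at 1045 CPM. The other PBS libraries held 1188 to 1234 CPM, against 1050 to 1168 CPM after LPS. The 4 retrieval genes summed to 1083 ± 14.7 CPM after LPS and 1086 ± 38.6 CPM after PBS in knockout-labelled mice, and to 1057 ± 21.1 CPM after LPS and 1079.7 ± 20.5 CPM after PBS in wild type mice.

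**Figure D3:**
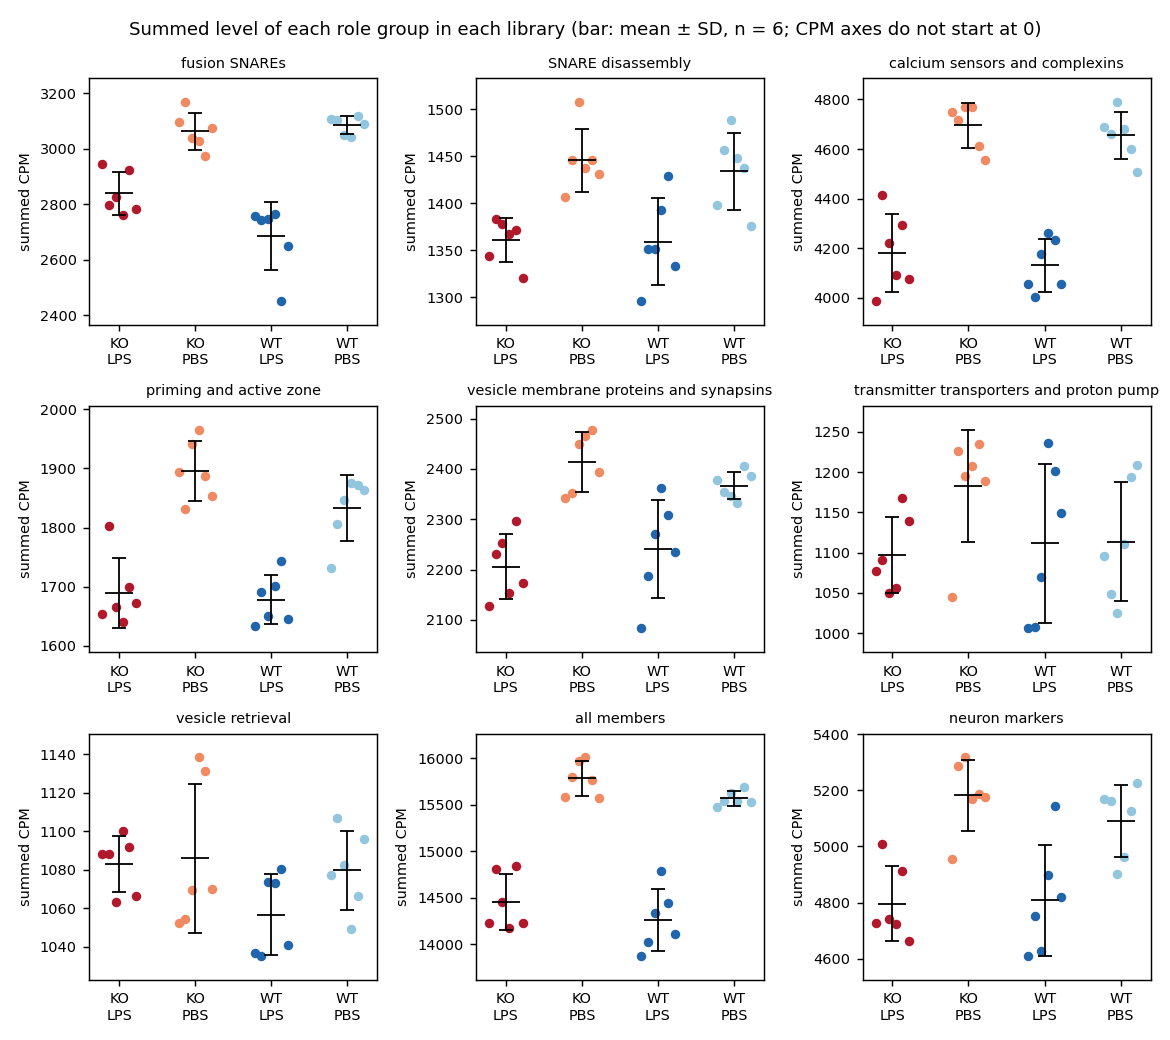
Summed level (y axis, CPM, not starting at 0) of each role group, of all 36 genes and of 10 neuron markers in each of the 24 libraries, with groups on the x axis in the order knockout-labelled LPS, knockout-labelled PBS, wild type LPS and wild type PBS; points are libraries and bars are mean ± SD (n = 6). The sums of all 36 genes lie at or under 14844 CPM after LPS and at or above 15477 CPM after PBS, and those of vesicle retrieval overlap.

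Markers of cell types moved with the injection too. The 10 general neuron markers were Rbfox3, Map2, Tubb3, Nefl, Nefm, Nefh, Eno2, Uchl1, Stmn2 and Thy1. In knockout-labelled mice they summed to 4663 to 5008 CPM after LPS, against 4954 to 5318 CPM after PBS. In wild type mice they summed to 4610.2 to 5144 CPM after LPS, against 4903 to 5226 CPM after PBS. Of these 10, 2 were called lower in knockout-labelled mice and 5 in wild type mice, with median log2 changes of -0.13 in each. None was called higher. The genes did not all move alike in wild type mice. There Nefm was at 263 to 337 CPM after LPS, against 327 to 385 CPM after PBS. Map2 was at 1056 to 1344 CPM after LPS, against 1104 to 1226 CPM after PBS. The ratio of the members' sum to that of the neuron markers was 3.01 ± 0.0352 after LPS and 3.05 ± 0.0621 after PBS in knockout-labelled mice, and 2.97 ± 0.0988 after LPS and 3.06 ± 0.0846 after PBS in wild type mice (SD, n = 6 each), so it overlapped between injections. Microglia markers, 7 of 8 called higher in each genotype, summed to 572 to 745 CPM in knockout-labelled LPS libraries, against 257 to 292 CPM in knockout-labelled PBS libraries, and to 677 to 904 CPM in wild type LPS libraries, against 270.4 to 330.01 CPM in wild type PBS libraries. Endothelial markers summed to 344 to 419 CPM after LPS against 176 to 224 CPM after PBS in knockout-labelled mice and to 378 to 472 CPM after LPS against 188 to 233 CPM after PBS in wild type mice, with 5 of 6 called higher in knockout-labelled mice and 6 of 6 in wild type mice. Astrocyte markers, 4 of 7 called higher in knockout-labelled mice and 5 higher and 1 lower in wild type mice, summed to 4448 to 4841 CPM after LPS against 4229.7 to 4421 CPM after PBS in knockout-labelled mice, and to 4544 to 4807 CPM after LPS against 4231 to 4331 CPM after PBS in wild type mice. Cerebellum markers were called lower for 5 of 6 in knockout-labelled mice and 3 of 6 in wild type mice. Of 7 oligodendrocyte markers, 2 were called higher and 3 lower in each genotype. Of 6 excitatory forebrain markers, 3 were called lower in knockout-labelled mice, and 1 higher and 2 lower in wild type mice. The part of these shifts in the members' lower levels was not tested.

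No member was called between knockout-labelled and wild type mice after LPS, where 1.05% of all tested genes were, and none by DESeq2. At an unadjusted p under 0.05, 5 of 36 members (13.9%) were higher in knockout-labelled mice, Snap25, Syt2, Syt4, Cplx2 and Pclo, and none was lower. At the same threshold 11.4% of all tested genes differed, 4.65% higher and 6.75% lower. Snap25 had 1564, 1618 and 1737 CPM in knockout-labelled LPS libraries, against 1187, 1461 and 1675 CPM in wild type LPS libraries. The ranges overlapped, since replicates 1 and 2 of the wild type group lay within the knockout-labelled range. Its log2 difference was 0.16 ± 0.06 (edgeR adjusted p = 0.215). Over all 36 genes the 95% intervals of this difference lay between -0.20 and 0.28.

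After PBS no member was called between knockout-labelled and wild type mice, by edgeR or by DESeq2, where 0.132% of all tested genes were called by edgeR. At an unadjusted p under 0.05, Doc2b, Rab3c and Slc32a1 were higher and Cplx1 lower in knockout-labelled mice, 11.1% of the 36, beside 8.73% of all tested genes at that threshold. Rab3c had 388, 404 and 429 CPM in knockout-labelled PBS libraries, against 338, 376 and 392 CPM in wild type PBS libraries. Those groups overlapped at their edges, and the log2 difference was 0.14 ± 0.05 (edgeR adjusted p = 0.353). Slc32a1 had a log2 difference of 0.15 ± 0.06 (adjusted p = 0.45). The 95% intervals of the 36 differences lay between -0.23 and 0.32. Syp and Syn1 lie on chromosome X, 1.78 and 11.4 Mb from Cybb, and neither was called between genotypes.

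The difference between genotypes in the LPS change was tested directly as the knockout-labelled change minus the wild type change. No member was called by edgeR or by DESeq2, where 0.00695% of all tested genes, 1 gene, was called by edgeR. Unadjusted p-values under 0.05 were found for 3 members, 8.33% of the 36, against 9.78% of all tested genes, so the members' share is no larger than the background; their values are given as a description. Snap25 had a difference of 0.24 ± 0.08 (edgeR adjusted p = 0.323). Rab3c had -0.18 ± 0.07 (adjusted p = 0.355). Slc32a1 had -0.23 ± 0.08 (adjusted p = 0.357). The 95% intervals of the 36 differences lay between -0.40 and 0.41, so the data do not show that LPS acted alike on these genes in both genotypes.

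Replicates 1 and 2 of wild type LPS mice bear on this comparison. Without them Snap25 and Pclo were called higher in knockout-labelled than in wild type mice after LPS, by 0.27 ± 0.05 (edgeR adjusted p = 0.00131) and 0.21 ± 0.05 (adjusted p = 0.017). The difference of the LPS change of Snap25 was then 0.35 ± 0.07 (adjusted p = 0.00725), the single member called. Leaving out either one of the 2 libraries gave no called member in any comparison between genotypes. S100a5 was at 0 CPM in these 2 libraries and at 0 to 0.271 CPM in knockout-labelled LPS libraries, against 8.01 to 9.22 CPM in the other 4 wild type LPS libraries, and Dlx1, a gene of forebrain and olfactory bulb interneurons, was at 27.5 and 27.4 CPM in them and at 19.6 to 30.9 CPM in knockout-labelled LPS libraries, against 55.0 to 59.5 CPM in the other 4. Mitochondrial ribosomal RNA took 5.07% and 5.39% of the counts of these 2 libraries and 3.90% to 4.71% in knockout-labelled LPS libraries, against 3.393% to 3.596% in the other 4. The part of these differences in the genotype comparison was not tested.

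**Figure D4:**
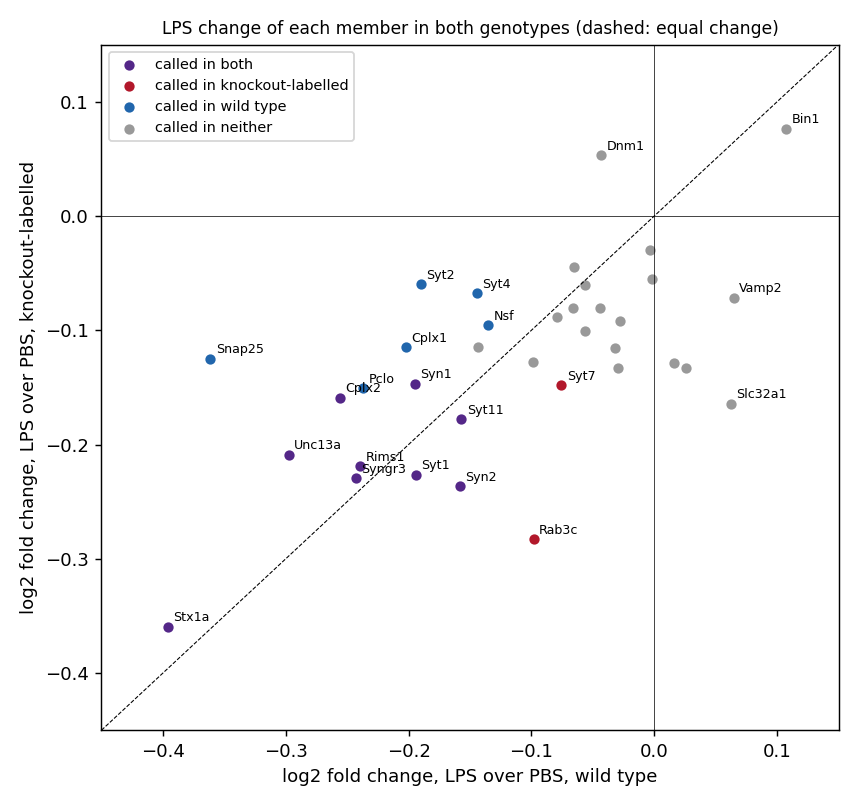
Log2 fold change of each of the 36 genes after LPS over PBS in knockout-labelled mice (y axis) against that in wild type mice (x axis); each point is 1 gene, coloured by where it was called, and the dashed line marks equal change. Of the 36 points, 30 lie below 0 on both axes, Stx1a lies farthest down near the line, and Snap25 and Rab3c lie on opposite sides of it.

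The LPS changes in the genotypes come from separate libraries. Over the 36 genes their Pearson correlation was 0.609 and their Spearman correlation 0.549, as a description across genes that are not independent of each other. A value over all tested genes is not given here for these correlations or for the count that follows. A log2 change below 0 in both genotypes was found for 30 of the 36 genes. Of the other 6, Vamp2, Doc2b, Slc17a7 and Slc32a1 were below 0 in knockout-labelled mice and above 0 in wild type mice, Dnm1 the reverse, and Bin1 above 0 in both.

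A list of 70 other genes of the vesicle cycle, which covers further syntaxins, synaptotagmins, active zone proteins, coat proteins and transporters, was set beside the members. Of these, 67 were tested. In knockout-labelled mice 2 were called higher and 8 lower after LPS, and in wild type mice 3 were called higher and 15 lower. The median log2 change was -0.08 in knockout-labelled mice and -0.10 in wild type mice. Syngr2, a synaptogyrin also found outside neurons, rose by 0.99 ± 0.13 on the log2 scale in knockout-labelled mice (edgeR adjusted p = 1.67e-07) and by 0.98 ± 0.13 in wild type mice (adjusted p = 4.24e-08), whereas its paralog Syngr3 fell. Its level was 21.1 to 24.8 CPM in knockout-labelled LPS libraries, against 8.22 to 14.3 CPM in knockout-labelled PBS libraries, and 15.7 to 30.1 CPM in wild type LPS libraries, against 9.05 to 14.2 CPM in wild type PBS libraries. Dnm2, the dynamin expressed in all tissues, rose by 0.29 ± 0.09 in knockout-labelled mice (adjusted p = 0.028) and by 0.43 ± 0.09 in wild type mice (adjusted p = 0.000357), and Dnm1, the neuronal dynamin among the members, was not called. The knockout-labelled call of Dnm2 was lost in 5 of 12 fits that left out 1 library, without replicate 1 or 2 of the LPS group or replicate 4, 5 or 6 of the PBS group (adjusted p up to 0.0886), and with DESeq2.

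Snap91, a clathrin assembly protein of the terminal, and Rph3a, a partner of Rab3 proteins, were called lower in both genotypes. Snap91 had log2 changes of -0.24 ± 0.04 in knockout-labelled mice (edgeR adjusted p = 4.73e-05) and -0.23 ± 0.04 in wild type mice (adjusted p = 7.86e-05), and Rph3a of -0.27 ± 0.05 in knockout-labelled mice and -0.22 ± 0.05 in wild type mice. Cplx3, a complexin of ribbon synapses and some cortical neurons, had the largest fall of the list in knockout-labelled mice, -0.67 ± 0.13 (adjusted p = 0.00024), at 9.92 ± 1.31 CPM after LPS and 15.8 ± 2.28 CPM after PBS (SD, n = 6 each). The difference of its LPS change between genotypes was -0.44 ± 0.18 (adjusted p = 0.417), not past the threshold. Scamp5 and Syt12 were called lower in knockout-labelled mice, with log2 changes of -0.21 ± 0.05 for Scamp5 and -0.41 ± 0.12 for Syt12, and the Syt12 call was lost without replicate 1 of the PBS group (adjusted p = 0.0514). Cadps, a priming factor of dense-core vesicles, was called lower in wild type mice, with a log2 change of -0.16 ± 0.04 (adjusted p = 0.00407).

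Synpr, which encodes synaptoporin, a relative of synaptophysin, was the single gene of this list called between genotypes. It had 83.5 to 116 CPM in knockout-labelled PBS libraries, against 108 to 136 CPM in wild type PBS libraries, and the ranges overlapped through replicate 1 of the knockout-labelled group. The log2 difference was -0.35 ± 0.07 (edgeR adjusted p = 0.0148). The call was lost in 4 of 12 fits that left out 1 library, without replicate 2, 5 or 6 of the knockout-labelled group or replicate 3 of the wild type group, with an adjusted p of up to 0.147. After LPS the difference was -0.26 ± 0.08 (adjusted p = 0.0744). After PBS, markers of olfactory bulb and nerve summed to 91.0 to 117 CPM in knockout-labelled and 109 to 174 CPM in wild type libraries. Most of this sum was Gng13, at 81.6 to 103 CPM in knockout-labelled and 76.6 to 104 CPM in wild type PBS libraries. Of the 6 markers, 3 were called lower in knockout-labelled mice. Omp was at 0 to 0.822 CPM in knockout-labelled and 0 to 17.4 CPM in wild type PBS libraries. The part of these markers in the Synpr difference was not tested.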

How the data were processed

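The deposited table holds raw counts per Ensembl gene, which the authors made with bcl2fastq, STAR 2.7.3a and featureCounts (Subread 2.0.0) on mm10/GRCm38, per the submitters' processing notes. Those notes also name R 3.6.1 and DESeq2 1.26.0. The annotation, the strand setting and the treatment of duplicates and multiply mapped tags remain not given in the sources used here. QuantSeq tags lie near transcript ends, so a level reflects the end that was counted and not the whole transcript.

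Columns were matched to samples by name, and symbols and positions came from GENCODE M21 for GRCm38. Members were genes whose symbol is on the list. Counts were tested in R 4.3.3 with edgeR 4.0.16: filterByExpr with a minimum count of 10 left 14380 genes, TMM factors were computed, and a quasi-likelihood model with 1 mean per group was fitted to all 24 libraries (20 residual degrees of freedom). The 5 comparisons were LPS over PBS in each genotype, knockout-labelled over wild type after LPS and after PBS, and the difference between the LPS changes. P-values were adjusted over all tested genes by Benjamini-Hochberg, with 0.05 as the threshold of a call. CPM values use the TMM-scaled library sizes. Totals of 2340184 to 5256169 counts per library gave 134 counts or more for every member. The steps were tested on simulated data.

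Members described library by library are those called in any comparison or, in a role group with none called, the one with the smallest p. Of the other genes of the vesicle cycle, the 6 with the smallest p were named in each LPS comparison, except 1 that is not reported here. Vamp2, Napa, Dnm2 in knockout-labelled mice and the genes shown as promoters were chosen after their values were seen. The members and the lists were chosen with earlier results of these data known. Alternatives were DESeq2 1.42.0, RLE or upper-quartile factors, library totals alone, other filters, a replicate block, fits of only the 2 groups compared, removal of Gm42418 and mitochondrial genes, and fits without single libraries.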

Additional observations from a re-analysis of the deposited data

Results flagged for a closer look

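Of the 144 sets of 6 libraries (36 genes in 4 groups), 7 held a library whose gap to its neighbour exceeded Dixon's critical value, where chance alone gives about 1 in 20. In knockout-labelled LPS libraries, replicate 2 was flagged as the highest for 3 genes. It was also the highest for other members, such as Syt1 and Rims1, without being flagged there. Syngr3 was at 69.4 CPM there, against 55.8 to 60.5 CPM in the other 5 libraries of the group. Syn1 was at 237 CPM there, against 199.9 to 214 CPM in the others, and Synj1 at 499.9 CPM, against 446 to 464 CPM. No library stood out in this way in the knockout-labelled PBS group. The rule compares 1 library with its neighbour, so 2 libraries that deviate together can escape it. Replicates 4 and 5 of that group were the lowest for Snap25, at 1640 and 1637 CPM, and for Slc17a6, at 98.9 and 98.7 CPM. In wild type LPS libraries, Syt2 was lowest in replicate 3, at 117 CPM, against 126 to 131 CPM. In wild type PBS libraries, Snap25 was lowest in replicate 6, at 1807 CPM, against 1872 to 1905 CPM. In the same library Bin1 was highest, at 181 CPM, against 163 to 169.7 CPM. Syn1 was lowest in replicate 2 of that group, at 233 CPM, against 243 to 248 CPM.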

How the results depend on the processing

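No member's called change turned its direction under any alternative. The count of members called lower in knockout-labelled mice, 11, was 7 with a minimum count of 30 and 6 to 13 without single libraries. It was 13 with DESeq2, which added Cplx1 and Pclo, and 13 with only the 2 groups compared and 10 with library totals, upper-quartile factors or no filter. The wild type count, 15, was 14 to 16 without single libraries. Without replicates 1 and 2 of wild type LPS mice together, 16 members were lower and 1, Vamp2, higher after LPS in wild type mice, 2 members were called between genotypes after LPS and 1 for the difference of the LPS changes; no other alternative called a member in a genotype comparison, and all fits without 1 library gave 0. The cause was not tested.

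Over all genes, 1564 were called after LPS in knockout-labelled mice (1317 to 1607 without single libraries) and 2596 in wild type mice (2214 to 2754). The 151 called between genotypes after LPS became 293 with no filter, 561 without replicates 1 and 2 of wild type LPS mice and 72 to 289 without single libraries. The 19 called after PBS became 88 with no filter, 33 with only the 2 groups compared and 13 to 32 without single libraries. The 1 called for the difference became 2 with DESeq2, 67 with no filter, 249 without replicates 1 and 2 of wild type LPS mice and 1 to 20 without single libraries.

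Counts of the other vesicle cycle genes under each alternative were added after seeing the data. They were 7 to 10 in knockout-labelled mice and 14 to 18 in wild type mice without single libraries, beside 10 and 18. Between genotypes after LPS the count of 0 became 1 with no filter and 1 without replicates 1 and 2 of wild type LPS mice, and it was 0 to 1 without single libraries. After PBS it was 0 to 1 without single libraries, and for the difference 0.

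Whether replicate numbers pair the samples was not settled. Of 36 pairs of groups' same-numbered libraries, 2 correlated above 0.1 (median 0.0334, highest 0.179). Of 180 pairs with other numbers, 1 did (median -0.000807, highest 0.131). With the number as a replicate block, 11 and 15 members were called after LPS and 0 in each genotype comparison. Over all genes the block gave 1672 and 2751 after LPS, 273 between genotypes after LPS, 39 after PBS and 8 for the difference, and 1 other vesicle cycle gene after LPS. These counts over all genes were higher than those without the block in every comparison.

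The members' counts per library were 134 or more, and whether depth limited any call was not tested. Cell composition, dissection and the unstated strand setting were not separated from the members' levels.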
